A study of Mus musculus with 6 samples.

Results

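RNA-seq of mouse primary somatosensory cortex was examined for the genes that encode the receptors for serotonin, for adrenaline and noradrenaline, and for acetylcholine. Members were the genes whose symbol begins with Htr, Adra, Adrb, Chrm, Chrna, Chrnb, Chrnd, Chrne or Chrng followed by a digit or the end of the symbol, and 1 antisense gene was left out. This gave 44 of the 47794 genes in the deposited table, namely 14 serotonin, 9 adrenergic, 5 muscarinic and 16 nicotinic receptor genes. The tested mice carried β-cat lox(ex3), an allele of Ctnnb1 whose exon 3 can be removed by Cre, together with Nex-Cre, and are called Ovp, the series' name for β-catenin overexpression. The comparison mice, called Ctrl, carried β-cat lox(ex3) without Nex-Cre, so the floxed allele was shared by both groups. Ovp mice thus differ from Ctrl by Nex-Cre itself as well as by the loss of exon 3, and these cannot be told apart here. All were C57BL/6 mice at postnatal day 14, with 3 libraries in each group. The labels number the replicates without saying that each was a separate animal. The p-values here set the difference between the groups against the scatter of these samples, and part of that scatter may be technical.

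Nex-Cre is active in the developing excitatory neurons of the cortex and hippocampus, and not in cortical interneurons, glia or vessels, whereas the RNA came from whole tissue. Loss of exon 3 removes the sites through which β-catenin is marked for degradation, and the stabilised protein can act with TCF/LEF factors at promoters. In bulk tissue, fewer cells of a type and less RNA per cell cannot be told apart.

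Serotonin comes to the cortex from the raphe nuclei, noradrenaline from the locus coeruleus and acetylcholine mainly from the basal forebrain, so the cortex holds mostly the receiving side of these systems. Most of the receptors are G protein-coupled: Gq-coupled receptors raise intracellular calcium, Gs-coupled receptors raise cyclic AMP, and Gi-coupled receptors lower it. The nicotinic receptors and the 5-HT3 receptor are ion channels made of 5 subunits that open when transmitter binds.

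The table gives 1 scaled read count per gene and group, the mean over the group's 3 libraries, with the authors' p-value for each gene. The group means summed to 18602579.1 scaled reads in Ovp and 19016748.6 in Ctrl. Because each mean comes from whole reads divided by a scaling factor for each library, the values of single libraries could be worked out for lower genes. They are named A, B and C within each group, in order of scaling factor, and cannot be tied to the replicate numbers of the labels. This gave library values for 37 of the 44 members, 28 of them with a mean of at least 10 scaled reads. Adra2a, Adrb1 and Htr5a had library values only if all 3 Ovp libraries lie within 1.5-fold of the mean, and Chrm1, Chrm3, Chrna4 and Chrnb2 have group means only. Ctnnb1 itself was at 6391 scaled reads in Ovp and 7574 in Ctrl, a count that includes exons outside the deleted one and so does not check the deletion.

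No receptor gene passed the authors' test after adjustment, and neither did any other gene. In the authors' deposited table none of the 42 members with a p-value, and 0% of the 30152 genes tested, had an adjusted p under 0.05. At an unadjusted p under 0.05 the authors' deposited table held 2 members, Adra2a and Htr2b, both lower in Ovp, against 0.206% of all genes lower, 0.328% higher and 0.534% in either direction. In limma on the recovered libraries, 0 of 28 members and 0% of 9782 genes had a Benjamini-Hochberg adjusted p under 0.05. At an unadjusted p under 0.05 limma held Adrb3 and Htr5b, both lower in Ovp, against 0.685% of genes lower, 1.44% higher and 2.13% in either direction. The sections below therefore give levels and differences, and no member is called changed.

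Among the 35 members with a mean of at least 10 scaled reads, 20 had a lower and 15 a higher group mean in Ovp, where 53.2% of the 17095 genes of that level were lower and 46.8% higher. That share depended on level, with 46.2% lower among the 10954 genes with a mean from 10 to 600 and 65.8% lower among the 6141 genes above that. The median log2 fold change (Ovp over Ctrl) was -0.07 over these members and -0.01 over all such genes. The adrenergic receptors lay lowest, with a median of -0.26, followed by the muscarinic receptors at -0.03, the serotonin receptors at -0.02 and the nicotinic receptors at 0.10. A difference of at least 1.2-fold was seen in 10 of the 35 members, against 13% of all genes: Adra1d, Adra2a, Adra2c, Adrb3, Chrna3, Htr5b and Htr6 were lower in Ovp (4.95% of all genes were), and Chrnb3, Htr1d and Htr1f were higher (8.05% of all genes were). Summed over all 44 members, the groups held 13089 scaled reads in Ovp and 14243 in Ctrl.

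**Figure D1:**
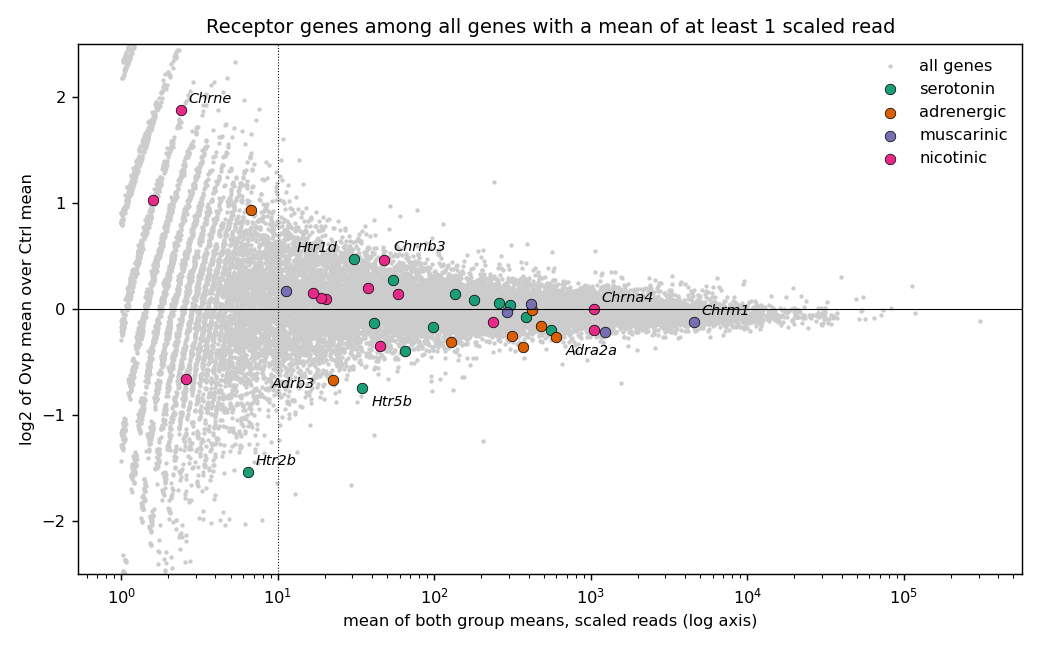
Each point is 1 gene, with the mean of both group means in scaled reads on the log x axis and the log2 of the Ovp mean over the Ctrl mean on the y axis. Grey points are all genes with a mean of at least 1 scaled read, coloured points are receptor genes by transmitter, the dotted line marks a mean of 10, and genes beyond 2.5 on the y axis are not drawn. The adrenergic receptors with a mean of at least 10 all lie below 0, Htr2b lies at -1.54 left of the dotted line, and Chrm1 is the receptor gene with the most reads.

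The adrenergic receptors were the one group whose 8 genes with a mean of at least 10 were all lower in Ovp, although Adra1b turned to 0.02 and 0.01 (log2) when the groups were divided by their sums or centred on genes averaging at least 100, and 7 of 8 then remained lower. Together with Adra2b, these genes summed to 2202 scaled reads in Ovp and 2551 in Ctrl. Per kilobase of exon the order of the adrenergic receptors reported here was Adra1d, Adrb1, Adra2a, Adra1b, Adra2c, Adra1a, Adrb3 and Adra2b, with 171 scaled reads per kilobase in Ovp and 219 in Ctrl for Adra1d, and 2.21 in Ovp and 1.16 in Ctrl for Adra2b.

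Adra2a encodes the alpha-2A receptor, a Gi-coupled receptor found both on noradrenergic terminals and on cortical neurons. Its library values, on the 1.5-fold condition above, were 587, 496 and 559.8 scaled reads in Ovp and 723, 606 and 646 in Ctrl. All 3 Ovp values lay below all 3 Ctrl values on that condition, and the nearest other combination of whole reads would put 1 Ovp library 1.62-fold from the mean. The group means of 548 in Ovp and 658 in Ctrl gave a log2 fold change of -0.27, and the authors' deposited table gives p = 0.0476 and adjusted p = 1. Limma was also extended to all genes with Ovp means up to 600 on the 1.5-fold condition, 10765 genes in all. There Adra2a had a log2 fold change of -0.26 ± 0.10 (SE, n = 3 per group) with a Benjamini-Hochberg adjusted p of 0.999. Adra2c, the related alpha-2C receptor, was at 127, 110.1 and 105 scaled reads in Ovp and 158, 156 and 109 in Ctrl, so that only Ctrl library C lay within the Ovp range.

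The alpha-1 receptors, which couple to Gq, differed among themselves. Adra1d was at 379.7, 326 and 268 scaled reads in Ovp and 486, 442 and 319 in Ctrl, with 2 Ctrl libraries above every Ovp library. Its limma log2 fold change was -0.35 (95% interval -0.70 to 0.00) with a Benjamini-Hochberg adjusted p of 0.999. Adra1a was at 313, 186 and 360.1 scaled reads in Ovp and 348, 368 and 309.9 in Ctrl, and Ovp library B lay far below the other 5 libraries. Adra1b was at 387, 488 and 377 scaled reads in Ovp and 418, 352 and 489.6 in Ctrl, with the groups overlapping throughout.

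The beta receptors couple to Gs. Adrb1, the main beta receptor of cortical neurons, was at 452, 613 and 308 scaled reads in Ovp and 559, 575 and 397 in Ctrl on the 1.5-fold condition, a spread wider than the difference between the means of 458 in Ovp and 510.2 in Ctrl. Adrb3, best known from fat, was at 13.9, 19.8 and 18.6 scaled reads in Ovp and 24.4, 34.6 and 24.3 in Ctrl. All 3 Ovp libraries of Adrb3 lay below all Ctrl libraries, as did 2.75% of all recovered genes, and it was the 1 of 28 recovered members with a mean of at least 10 for which that held. In limma Adrb3 differed by -0.64 ± 0.28 on the log2 scale (SE, 95% interval -1.26 to -0.02), with a Benjamini-Hochberg adjusted p of 0.999. On the GENCODE annotation, 839 exon bases of Adrb3 are shared with the opposite-strand gene Gm45470, whose reads cannot be told apart from those of Adrb3 without a known strand setting. Adra2b, at a mean below 10, was at 6.52, 6.59 and 13.5 scaled reads in Ovp and 3.05, 7.56 and 3.31 in Ctrl.

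**Figure D2:**
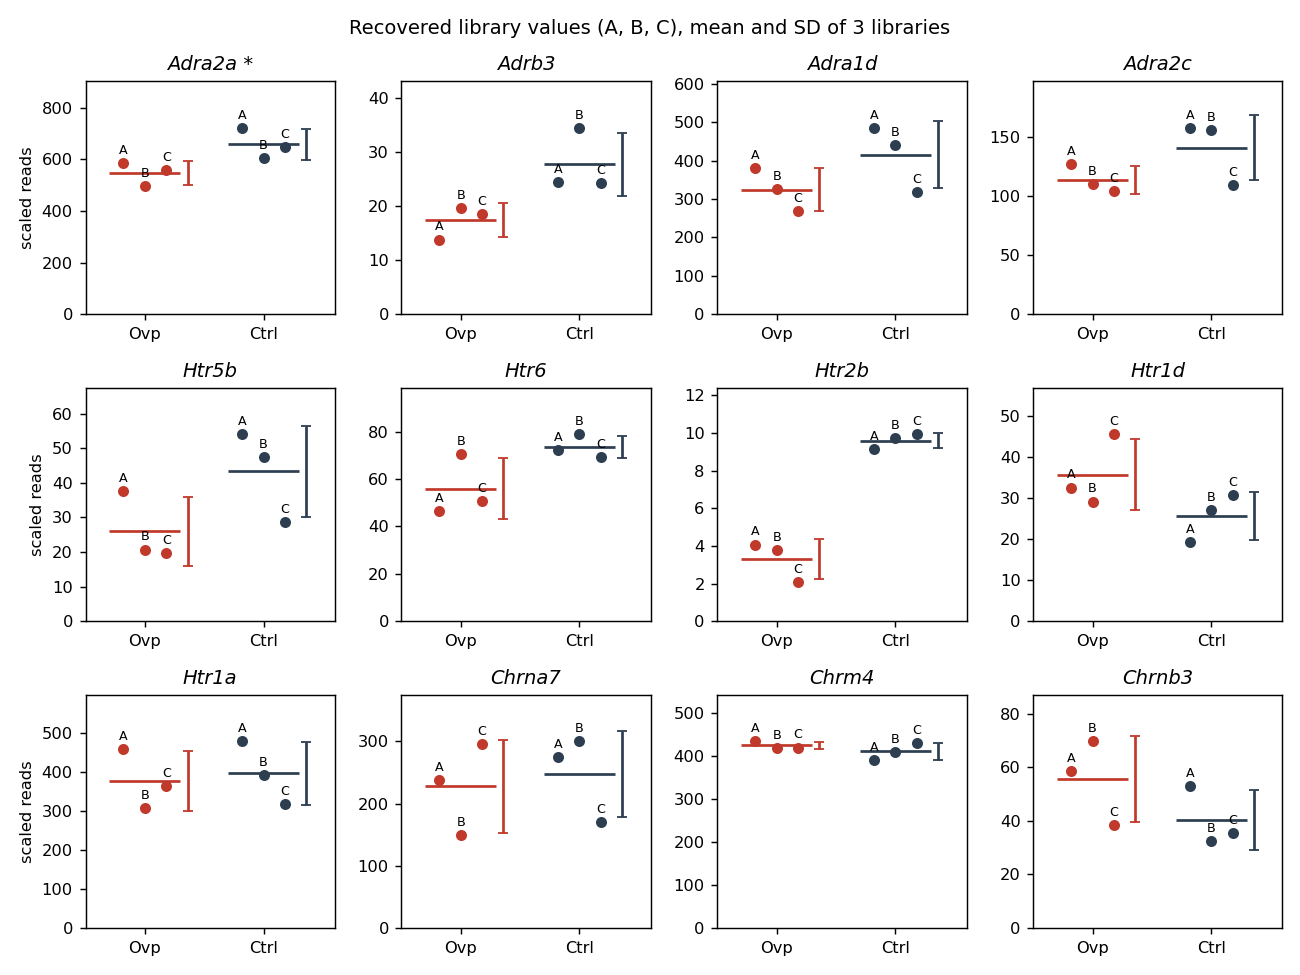
Scaled reads (y axis, from 0) of single libraries A, B and C for 12 receptor genes, with Ovp on the left and Ctrl on the right of each panel, a line at each group mean and a bar of 1 SD to either side. The asterisk marks Adra2a, whose library values hold only if all 3 Ovp libraries lie within 1.5-fold of the mean. Adra2a, Adrb3 and Htr2b show no overlap between the groups, whereas Htr5b and Adra1d overlap in 1 library of Ctrl.

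The serotonin receptors were evenly split, with 6 genes lower and 6 higher in Ovp among the 12 with a mean of at least 10. Their sum was 2108 scaled reads in Ovp and 2197 in Ctrl. Per kilobase the order was Htr5a, Htr1a, Htr2a, Htr7, Htr3a, Htr1b, Htr2c, Htr6, Htr1f, Htr5b, Htr1d, Htr4, Htr2b and Htr3b. The top gene, Htr5a, stood at 96.3 scaled reads per kilobase in Ovp and 110.3 in Ctrl.

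Htr2b encodes the Gq-coupled 5-HT2B receptor, known from heart valves, gut and microglia, and had the lowest ratio of Ovp to Ctrl among the serotonin receptors with reads in both groups. It was at 4.07, 3.76 and 2.07 scaled reads in Ovp, from 5, 4 and 2 reads, and at 9.16, 9.72 and 9.93 in Ctrl, from 9 reads in each library. Every Ovp library lay below every Ctrl library, as did 4.4% of the 6617 recovered genes with a mean from 1 to 10. The log2 fold change of the group means was -1.54, and the authors' deposited table gives p = 0.0464 and adjusted p = 1. With limma fitted down to a mean of 1, Htr2b had a log2 fold change of -1.33 ± 0.44 (SE, n = 3 per group) and a Benjamini-Hochberg adjusted p of 0.9996. On the annotation, 252 of its exon bases are shared with the opposite-strand gene Psmd1, a proteasome subunit at 2261 scaled reads in Ovp and 2286 in Ctrl. Of 12 microglial marker genes, 5 were higher and 7 lower in Ovp, and their sum was 6795 scaled reads in Ovp and 6703 in Ctrl.

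The promoters of Htr2b and Adra2a are shown because these were the members with p below 0.05 in the unadjusted test of the authors' deposited table. Each window runs from 250 bases before to 50 after the RefSeq start on GRCm38.p6, at chr1:86111931-86112230 on the minus strand for Htr2b and chr19:54045009-54045308 on the plus strand for Adra2a. Capitals mark the TCF/LEF core motif, searched on both strands in each of its 4 forms. The first form is CTTTGAT. The second form searched was CTTTGTT. The third form searched was CTTTGAA. The last form searched was CTTTGTA. None of the forms can overlap another on the same strand.
Htr2b: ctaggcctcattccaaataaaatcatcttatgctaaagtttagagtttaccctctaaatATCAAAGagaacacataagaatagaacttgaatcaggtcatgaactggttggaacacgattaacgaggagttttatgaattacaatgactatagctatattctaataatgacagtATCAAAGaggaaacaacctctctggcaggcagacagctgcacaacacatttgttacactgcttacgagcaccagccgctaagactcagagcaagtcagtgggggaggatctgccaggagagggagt
Adra2a: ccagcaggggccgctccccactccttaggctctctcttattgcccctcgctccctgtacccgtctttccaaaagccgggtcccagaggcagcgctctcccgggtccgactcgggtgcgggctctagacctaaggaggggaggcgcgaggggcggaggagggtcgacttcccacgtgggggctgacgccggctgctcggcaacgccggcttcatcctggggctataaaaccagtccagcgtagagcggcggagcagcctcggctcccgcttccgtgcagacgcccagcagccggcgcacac
Htr2b holds 2 matches, both written ATCAAAG on the strand shown, and Adra2a holds none. Of the 32 member genes with a RefSeq window, 2 hold a match, Htr2b and Chrna5, which is 2 of 36 windows or 5.56%, against 16.9% of the 32851 windows of all genes. A match is a run of letters and not a shown binding site.

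Htr5b and Htr6 had the lowest ratios among the serotonin receptors with a mean of at least 10. Htr5b, a receptor gene that has lost its reading frame in humans, was at 37.5, 20.7 and 19.7 scaled reads in Ovp and 54.0, 47.5 and 28.7 in Ctrl. Ctrl library C lay inside the Ovp range and the other 2 Ctrl libraries above it. In limma Htr5b differed by -0.73 ± 0.31 on the log2 scale (SE, 95% interval -1.42 to -0.05), with a Benjamini-Hochberg adjusted p of 0.999. Htr6, a Gs-coupled receptor of neuronal cilia, was at 46.4, 70.6 and 50.7 scaled reads in Ovp and 72.3, 78.8 and 69.5 in Ctrl, where Ovp library B reached the Ctrl range.

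The Gi-coupled receptors Htr1d and Htr1f lay at the other end. Htr1d was at 32.6, 29.2 and 45.5 scaled reads in Ovp and 19.3, 27.0 and 30.9 in Ctrl. Htr1f was at 69.3, 51.8 and 57.9 scaled reads in Ovp and 44.8, 50.8 and 52.9 in Ctrl. In both genes the highest Ctrl library exceeded the lowest Ovp library, and the limma intervals of the log2 fold change, -0.13 to 1.05 for Htr1d and -0.18 to 0.69 for Htr1f, included 0. Htr1b, the Gi-coupled autoreceptor of serotonin terminals that is also found on thalamic terminals in this cortex, was at 138, 136 and 151 scaled reads in Ovp and 116, 146 and 124 in Ctrl. On the annotation, 852 exon bases of Htr1b are shared with the opposite-strand gene D430036J16Rik, at 31.0 scaled reads in Ovp and 22.2 in Ctrl.

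The 3 serotonin receptors with the most reads showed small differences. Htr5a was at 555, 467 and 532 scaled reads in Ovp and 684, 487 and 608 in Ctrl on the 1.5-fold condition. Htr1a, the Gi-coupled receptor that quiets pyramidal neurons, was at 458, 307 and 364 scaled reads in Ovp and 479, 393 and 317 in Ctrl. Htr2a, the Gq-coupled receptor on which the classical psychedelics act, was at 313, 231 and 383 scaled reads in Ovp and 332, 272 and 299 in Ctrl. Their groups overlapped, and the limma 95% interval for Htr2a ran from -0.34 to 0.37 on the log2 scale.

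Htr3a, the ion channel subunit that marks a class of cortical interneurons, was at 113, 70.6 and 95.2 scaled reads in Ovp and 129, 79.9 and 104 in Ctrl. Of the markers of that interneuron class 11 of 12 were lower in Ovp, with a median log2 fold change of -0.13 and none with p below 0.05 by the authors' unadjusted test, and their part in the value of Htr3a was not tested. The list for Pvalb and Sst interneurons was lower in 9 of 11 genes with a median of -0.13. It also holds Gad1, Gad2 and Slc32a1, which are not particular to these cells and were among the lower genes. Markers of upper-layer excitatory neurons were lower in 9 of 12 genes with a median of -0.09. Of all genes, 53.2% with a mean of at least 10 and 65.8% with a mean of at least 600 were lower. Deep-layer excitatory markers were higher in 7 genes and lower in 4, with a median of 0.05. Among these, Cplx3 and Nxph4 were higher with p below 0.05 by the authors' unadjusted test. Htr3b, the partner of Htr3a, was listed at 0 in Ovp, and 1 read in Ctrl library B was all that Ctrl held. Htr2c, a Gq-coupled receptor also abundant in choroid plexus, was at 363, 142 and 289 scaled reads in Ovp and 217, 204 and 341 in Ctrl. Of 5 choroid plexus markers with a mean of at least 10, 2 were higher and 3 lower in Ovp, and the list of 12 summed to 276, 252 and 306 scaled reads in Ovp and 238, 921 and 214 in Ctrl. Its members did not run alike: Ttr was highest in Ctrl library B, at 713 scaled reads, and Kl was lowest in Ovp library B, at 10.4. Their part in the Htr2c values was not tested. Htr7, Gs-coupled, was at 176, 199.5 and 181 scaled reads in Ovp and 164, 159.8 and 199.6 in Ctrl. Htr4, also Gs-coupled, ranged from 11.3 to 63.6 scaled reads in Ovp and from 30.9 to 54.0 in Ctrl.

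**Figure D3:**
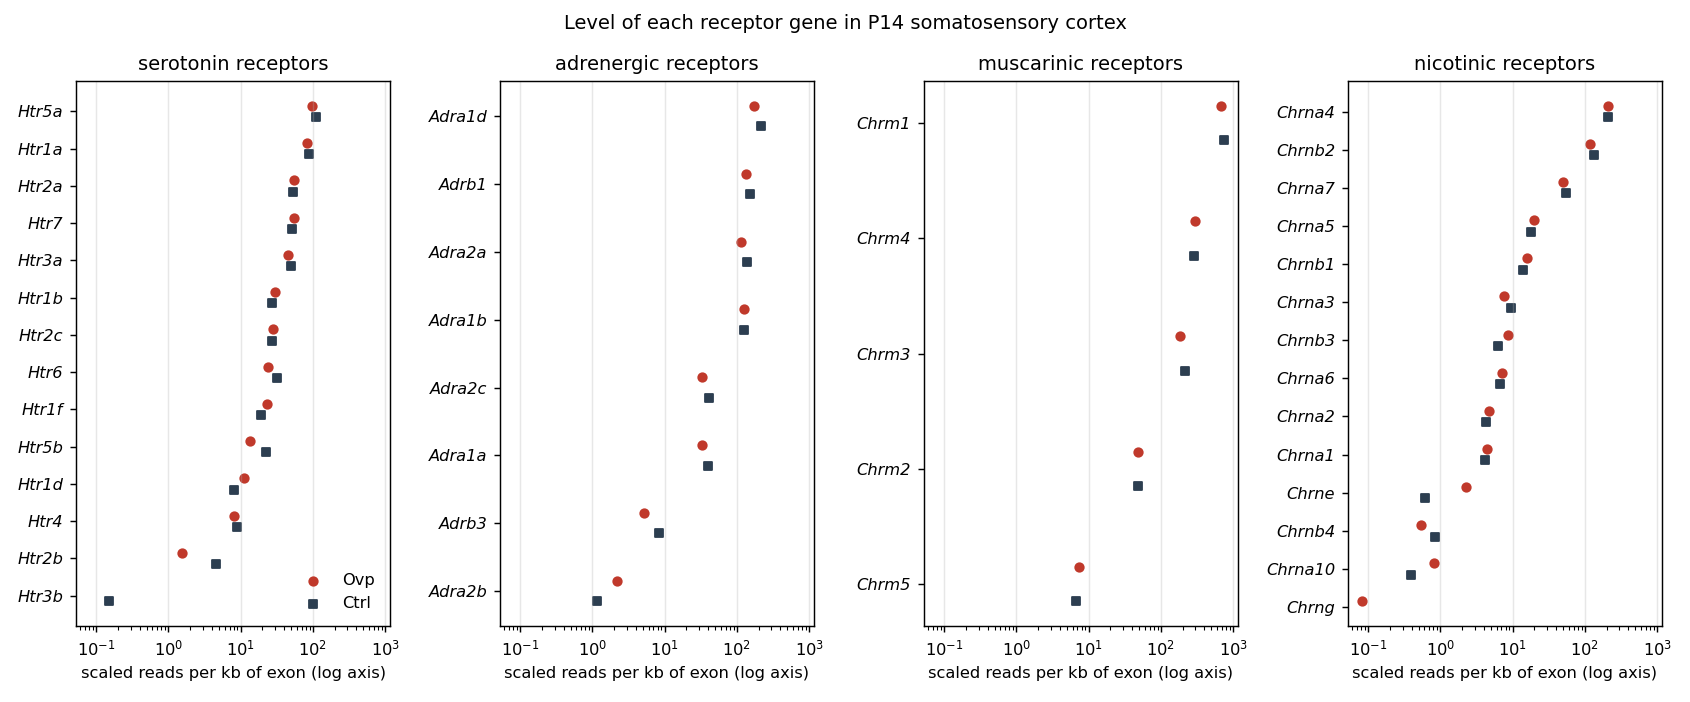
Group means in scaled reads per kilobase of exon, on a log axis, for the receptor genes of each transmitter, with genes ordered by their mean over groups and Ovp and Ctrl shown as separate points. Chrm1 stands highest, at 677 in Ovp and 739 in Ctrl, and a group listed at 0 has no point, as for Htr3b in Ovp and Chrng in Ctrl.

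The muscarinic receptors held the receptor genes with the most reads and showed small differences, with 3 of 5 lower in Ovp and sums of 6261 scaled reads in Ovp and 6837 in Ctrl. Chrm1, the Gq-coupled M1 receptor of pyramidal neurons, averaged 4389 scaled reads in Ovp and 4791 in Ctrl, a log2 fold change of -0.13 for which the authors' deposited table gives p = 0.353 and adjusted p = 1. Chrm3, also Gq-coupled, averaged 1145 scaled reads in Ovp and 1329.5 in Ctrl, which is -0.22 on the log2 scale, with p = 0.227 and adjusted p = 1 in the authors' deposited table. No library values were recovered for either gene.

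The Gi-coupled Chrm4 had the narrowest limma interval of the recovered receptor genes, and was at 433, 419 and 419 scaled reads in Ovp and 389.95, 409 and 430.1 in Ctrl. Markers of striatum, where Chrm4 is abundant, were higher in Ovp in 10 of 11 genes with a median of 0.35. The 5 of them with library values summed to 677, 832 and 960 scaled reads in Ovp and 568, 725 and 881 in Ctrl, so the groups overlapped. Of all genes with a mean of at least 10, 46.8% were higher. None of the striatal markers had p below 0.05 by the authors' unadjusted test, and their part in the Chrm4 value was not tested. Chrm2, the Gi-coupled receptor that also serves as an autoreceptor, was at 317, 278 and 278 scaled reads in Ovp and 307, 273 and 308 in Ctrl, and its log2 fold change of -0.03 turned positive when the groups were divided by their sums. Chrm5, the rarest, ranged from 2.82 to 19.6 scaled reads in Ovp and from 1.103 to 20.5 in Ctrl.

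The nicotinic subunits differed in both directions. Of the 10 with a mean of at least 10 scaled reads, 2 differed by at least 1.2-fold, against 13% of all genes: Chrnb3 higher and Chrna3 lower in Ovp. Of the 3 with the most reads, Chrnb2 and Chrna7 were lower in Ovp and Chrna4 was level, whereas 6 of the 7 others with a mean of at least 10 were higher and Chrna3 was lower. Across all genes 56.5% of the 5450 with a mean from 10 to 100 were higher and 65.8% of those above 600 were lower. The median log2 fold change was 0.10 over 10 genes and -0.13 over the 3 with a mean of at least 100. Chrna4 and Chrnb2 together form the main high-affinity nicotinic receptor of the cortex. Chrna4 averaged 1052 scaled reads in Ovp and 1051 in Ctrl, with p = 0.98 and adjusted p = 1 in the authors' deposited table. Chrnb2 averaged 975 scaled reads in Ovp and 1118 in Ctrl, which is -0.20 on the log2 scale, with p = 0.108 and adjusted p = 1 in the authors' deposited table. On the annotation, 1365 exon bases of Chrnb2 are shared with the opposite-strand gene Adar, at 2066 scaled reads in Ovp and 2216 in Ctrl. Chrna7, which forms receptors of its own, was at 238, 149 and 296 scaled reads in Ovp and 275, 300.2 and 169.8 in Ctrl, with the groups overlapping.

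Chrna5, Chrna3 and Chrnb4 lie next to each other in the genome and encode subunits that assemble together in peripheral ganglia and the habenula. Chrna5, an accessory subunit of deep-layer neurons, was at 78.2, 36.7 and 69.3 scaled reads in Ovp and 70.3, 56.2 and 40.8 in Ctrl. Chrna3 was at 26.1, 50.8 and 42.4 scaled reads in Ovp and 33.6, 51.8 and 66.2 in Ctrl. Within each group the library highest for Chrna5 was lowest for Chrna3, and the library lowest for Chrna5 was highest for Chrna3. Chrnb4 was at most 5.17 scaled reads in any Ovp library and 5.09 in any Ctrl library.

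Chrnb3, an accessory subunit, had the highest ratio of the nicotinic genes with a mean of at least 10, at 58.7, 69.6 and 38.3 scaled reads in Ovp and 52.9, 32.4 and 35.3 in Ctrl. Ovp library C lay inside the Ctrl range, and the limma 95% interval of -0.14 to 1.03 on the log2 scale included 0. Its neighbour Chrna6, with which it assembles in dopamine neurons, was at 21.2, 17.9 and 23.8 scaled reads in Ovp and 14.3, 21.6 and 23.2 in Ctrl. Chrna2, found in a subset of interneurons, was at 18.7, 15.1 and 19.7 scaled reads in Ovp and 15.3, 16.2 and 16.5 in Ctrl.

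The subunits of the muscle receptor were near the floor, apart from its alpha and beta subunits. Chrnb1 was at 39.9, 38.6 and 42.4 scaled reads in Ovp and 33.6, 31.3 and 40.8 in Ctrl, and Chrna1 was at 22.8, 16.0 and 19.7 in Ovp and 15.3, 23.8 and 15.4 in Ctrl. Chrne was at 1.63, 5.65 and 4.14 scaled reads in Ovp and 2.04, 1.08 and 0 in Ctrl. The fetal subunit Chrng had 1 read in Ovp library C and none elsewhere. Chrnd and the hair-cell subunit Chrna9 had 0 reads in all 6 libraries. A count of 0 in 1 library allows up to 3 expected reads in that library, counting error only, and 0 reads in all 6 libraries lowers that limit. Chrnd and Chrna9 were thus not detected at this depth, which does not show that they are absent. Chrna10, which assembles with Chrna9, was at most 2.44 scaled reads in Ovp and 2.04 in Ctrl.

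**Figure D4:**
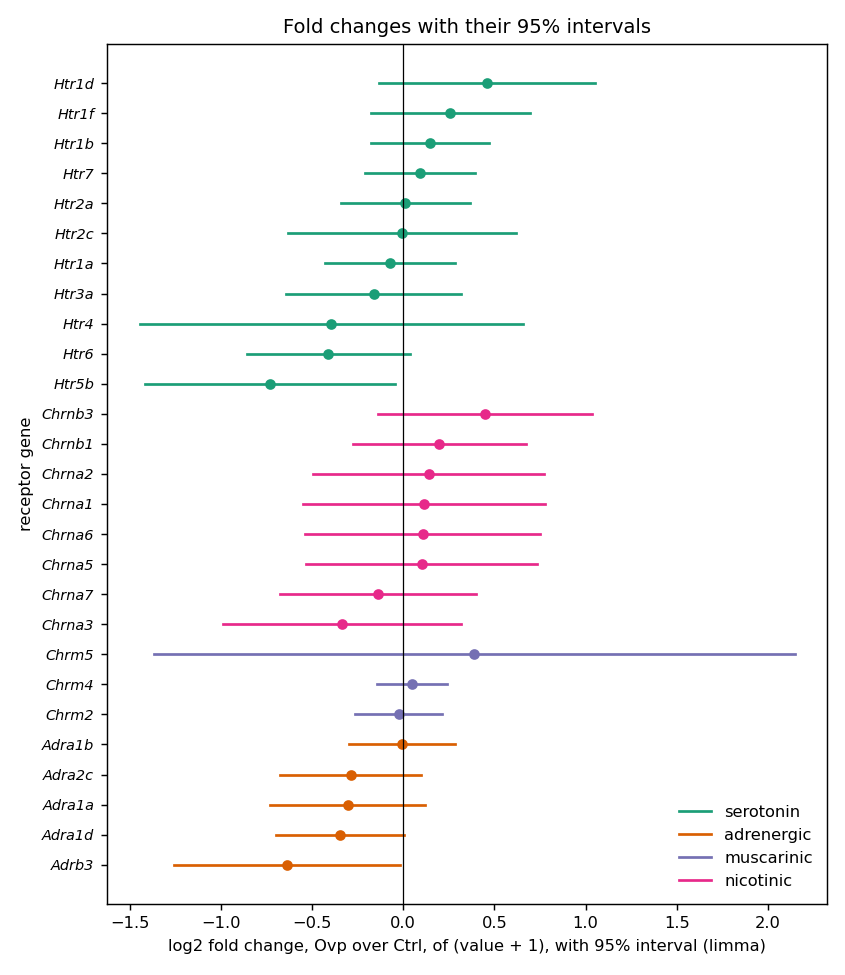
Limma log2 fold changes (Ovp over Ctrl) of 27 recovered receptor genes with a mean of at least 10 scaled reads, on the log2(value + 1) scale of the x axis, with 95% intervals and colours by transmitter. The intervals of Adrb3 and Htr5b exclude 0 and the other 25 include it.

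The precision of these comparisons differed widely between members. The limma 95% intervals of the 28 members spanned a median of 1.42-fold to either side of the estimate, from 1.14-fold at the narrowest to 3.38-fold for Chrm5. Sorted by coupling, the median log2 fold change was -0.15 for the 6 Gs-coupled receptors, -0.07 for the 8 Gq-coupled receptors, -0.03 for the 9 Gi-coupled receptors and 0.09 for the 11 ion channel subunits, with genes averaging under 10 left out, Htr5b in none of these classes and no test made. The median coefficient of variation over libraries was 21.7% in Ovp and 21.0% in Ctrl for the 28 members, against 15.3% in Ovp and 14.2% in Ctrl for all recovered genes, which differ in level. For means from 10 to 100 it was 23.6% in Ovp and 25.3% in Ctrl over 16 members, against 21.0% in Ovp and 20.6% in Ctrl over all genes. For means from 100 to 450 it was 16.0% in Ovp and 14.5% in Ctrl over 12 members, against 10.3% in Ovp and 9.35% in Ctrl over all genes. The receptor groups differed, and the 3 recovered muscarinic receptors had 7.74% in Ovp and 6.69% in Ctrl.

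Single libraries stood apart. Ovp library B was the lowest of its group in 18 of the 28 members, or 64.3%, against 29.7% of the 9782 recovered genes. It was lowest in 8 of 11 serotonin, 6 of 8 nicotinic and 3 of 3 muscarinic receptors. The adrenergic receptors went the other way, with Ovp library B lowest in 1 and highest in 3 of 6. Adra1a, Chrm5, Chrna5, Chrna7, Htr1a and Htr4 were lowest both in Ovp library B and in Ctrl library C, which is 21.4% of members and 11.4% of all genes. Members lowest in Ovp library B were spread over the Ctrl libraries, with 7 lowest also in Ctrl library A (25% of members, 10.3% of all genes) and 5 in Ctrl library B (17.9% of members, 7.98% of all genes). Ovp library B and Ctrl library C were also low in the hippocampal markers Lct and C1ql2. Lct was at 337, 152 and 362 scaled reads in Ovp libraries A, B and C and at 357, 415 and 110.3 in Ctrl. C1ql2 was at 99.4, 10.4 and 48.6 scaled reads in Ovp and at 127, 57.2 and 25.4 in Ctrl. The full list of 12 hippocampal genes stood at 9583 scaled reads in Ovp and 9637 in Ctrl, with 5 higher and 7 lower. The part of these markers in the receptor values was not tested. Without Ovp library B and Ctrl library C, limma held 7 members at an unadjusted p under 0.05, of which Adra1d, Adra2c, Adrb3, Htr5b and Htr6 were lower and Htr1d and Htr2c higher in Ovp, and all had Benjamini-Hochberg adjusted p of at least 0.712. The share of all genes was then 4.39%. The libraries to leave out were chosen after seeing these member values, so the count of members is no independent support.

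**Figure D5:**
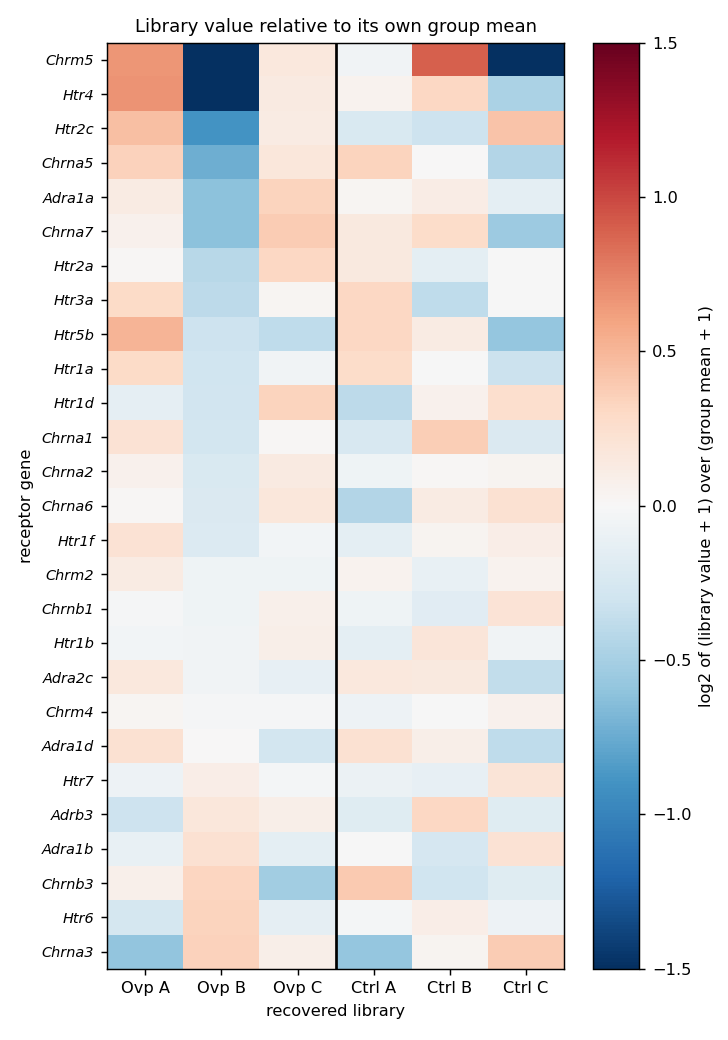
Log2 ratio of each library's value + 1 to its own group mean + 1, as colour, for 27 recovered receptor genes with a mean of at least 10 (rows), with Ovp libraries left of Ctrl libraries. Colours saturate at 1.5 in either direction. Ovp library B is below its group mean in most rows.

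The genes that make, remove or respond to the 3 transmitters showed no adjusted call in any of 8 lists. For serotonin handling 3 of 7 genes were higher and 4 lower in Ovp, with a median log2 fold change of 0.00. Maoa, which degrades serotonin, was at 681.0 scaled reads in Ovp and 681.1 in Ctrl. For noradrenaline handling 3 were higher and 2 lower, and Slc29a4, a monoamine transporter, was at 645 scaled reads in Ovp and 638 in Ctrl. For acetylcholine handling 3 were higher and 5 lower. Ache, the enzyme that splits acetylcholine, was at 1223 scaled reads in Ovp and 1191 in Ctrl. Colq, its collagen-like anchor, was at 33.4 scaled reads in Ovp and 49.4 in Ctrl, with p = 0.0429 and adjusted p = 1 in the authors' deposited table.

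The signalling lists hold mostly abundant genes, a level at which 65.8% of all genes with a mean of at least 600 were lower in Ovp with a median of -0.03. Of the Gq arm 12 of 14 genes were lower, with a median of -0.07, and Rgs4, which shortens Gq and Gi signals, was at 10719 scaled reads in Ovp and 11987 in Ctrl. Of the Gs and Gi arms 18 of 28 were lower, with a median of -0.08. Adcy8, a calcium-stimulated adenylyl cyclase, was at 602 scaled reads in Ovp and 767 in Ctrl, with p = 0.0202 and adjusted p = 1 in the authors' deposited table. Of the proteins that assemble or modulate nicotinic receptors 5 were higher and 6 lower, and Lynx1, a toxin-like brake on these receptors, was at 10274 scaled reads in Ovp and 10672 in Ctrl. Receptor desensitisation genes were higher in 4 and lower in 7, and the other aminergic receptors, for dopamine and histamine, were higher in 4 and lower in 2. Markers of the cells that release the transmitters ranged widely in level. Slc18a2 was the highest, at 154 scaled reads in Ovp and 152 in Ctrl. Fev, a factor of serotonin neurons, was listed at 0 in Ovp and at 0.368 scaled reads in Ctrl. The list of 12 summed to 362 scaled reads in Ovp and 359 in Ctrl.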

How the data were processed

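Libraries from 3 Ovp and 3 Ctrl samples of primary somatosensory cortex were made from total RNA with the Illumina TruSeq RNA kit, per the labels' protocols. Per the submitters' processing notes, the tools included TopHat2 2.0.9 and Bowtie2 2.0.6. Genome build, annotation, read counter, strand setting and differential test were each not given in the sources used here. As for files, the authors deposited 1 table with 1 mean scaled read count for each gene in each group (a signal, not whole counts) and their p-values and adjusted p-values. The deposited fold changes hold spreadsheet errors and were recomputed from the means. Gene symbols were matched to 46488 of 47069 Ensembl identifiers.

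Each group mean is the mean of whole reads divided by 1 scaling factor per library, and these divisors (1.23, 1.06 and 0.966 in Ovp, 0.982, 0.926 and 0.907 in Ctrl) were worked out from low values. Library values were accepted where 1 combination of whole reads matched all 10 significant digits: all combinations were searched up to a mean of 100 in Ovp and 500 in Ctrl, and above that combinations within 2-fold of the mean, up to 450 in Ovp and 1000 in Ctrl. This gave 9782 genes, 57.2% of those with a mean of at least 10. On simulated data, 99.3% of Ovp and 100% of Ctrl means had 1 combination, and 100% of these were right. The simulated libraries were drawn around the same mean with a fixed spread, so they cannot show how often real values lie outside the window. Of the real Ovp means above 100 and up to 450, 97.0% had 1 combination. For 8 of the 37 members recovered without the 1.5-fold condition another combination exists outside the window, each with a library at least 2.29-fold from the mean. For the members on that condition, the nearest other combination had a library 1.62-fold (Adra2a), 1.69-fold (Htr5a) or 3.43-fold (Adrb1) from the mean.

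The linear models were fitted in R 4.3.3 with limma 3.58.1, using a mean-variance trend, on log2(value + 1), two-sided, with Benjamini-Hochberg adjustment over all fitted genes. Exon lengths and overlaps came from GENCODE M21. Named in full were, in each receptor group, the 3 genes with the highest mean, the 2 highest and 2 lowest log2 fold changes at a mean of at least 10, and those with a deposited unadjusted p under 0.05; other members are given by level, and 1 adrenergic receptor gene and a few list genes are counted but not reported singly here. In each pathway list, genes were named from the 2 with the highest mean and those with such a p. The members and lists were chosen with earlier results of these data known. Alternatives were other pseudocounts, filters and scalings, no trend, and each library left out.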

Additional observations from a re-analysis of the deposited data

How the results depend on the processing

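No paired analysis was possible because the recovered libraries carry no replicate numbers. The count of members at an unadjusted limma p under 0.05, 2 as reported, was 4 with a minimum mean of 1 and 4 with no filter beyond a value above 0 (Htr2b and Adra1d added), 0 with a minimum mean of 50, 1 with no mean-variance trend (Adrb3), 4 after median-of-ratios rescaling (Adra1d and Htr6 added) and 7 without Ovp library B and Ctrl library C. Leaving out 1 library at a time gave 0 (without Ctrl library B) to 4 (without Ctrl library C). Leaving out Ovp library B and Ctrl library C together, and an extension to Ovp means of 600 with 3 members, were chosen after seeing the data. Over members with library values, leaving out 1 library moved the median log2 fold change between -0.24 and 0.17 for serotonin (0.04 with all), -0.39 and -0.23 for adrenergic (-0.28 with all) and -0.0913 and 0.0569 for muscarinic (0.05 with all) and 0.0285 (without Ovp library A) and 0.23 (without Ovp library B) for nicotinic receptors (0.12 with all). The nicotinic median was -0.13 at a minimum mean of 100. The cause was not tested. The adrenergic median stayed below 0 in every alternative run. Adrb3 lost its unadjusted p under 0.05 without Ovp library A, Ovp library C, Ctrl library A or Ctrl library B, and Htr5b without Ovp library B, Ovp library C, Ctrl library A or Ctrl library B. Of 232 values of single members under alternatives, 211 stayed on their side of the threshold, 12 gained and 9 lost an unadjusted p under 0.05. Some of the 211 changed direction while above the threshold. Chrm5, for example, had a limma log2 fold change of -0.57 without Ctrl library C and 0.39 with all libraries. No member passed adjustment in any setting. Few reads limit Htr2b, Chrne and the other members with a mean below 10.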
